A study of Mus musculus with 10 samples.

Results

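The Notch genes described here are 10 genes of a signalling pathway between neighbouring cells: the receptors Notch1, Notch2, Notch3 and Notch4, the ligands Jag1, Jag2 and Dll1, and the target genes Hes1, Hey1 and Heyl. They were chosen by name among the gene names of the array, as 10 of 34724 distinct names, and 13 of 55644 usable probes carry them. A Notch receptor is bound by a ligand on the surface of an adjacent cell, after which an ADAM protease and then gamma-secretase cut it and free its intracellular domain. That domain enters the nucleus, binds RBPJ and a Mastermind-like protein, and turns on genes of the HES and HEY families, which encode transcriptional repressors. In mesenchymal stromal cells the pathway is known for holding back bone-forming differentiation, and in vessel walls for the upkeep of pericytes and smooth muscle.

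RNA was measured on 10 single-colour arrays of cultured FVB mouse cells, 2 independent cultures for each of 5 groups. The tumor line (TRbp53-10D) was a single line grown from a tumor that arose when null marrow cells were injected under the skin of NSG mice, an immunodeficient strain. Some of its labels speak of a tumor and some of a cell line. Null BM-MSC and null ASC were mesenchymal stem cells from bone marrow and from fat, labelled as lacking Rb and p53 (Rb1 and Trp53). By the growth protocol they carried loxP-flanked alleles of both genes, spent 10 days in osteogenic medium and were then infected with Ad-CMV-Cre, an adenovirus that expresses Cre recombinase from the CMV promoter. Their source labels name mice lacking the genes instead. The wild-type cells, again BM-MSC and ASC, came from WT mice. All cultures were kept in the same growth medium, and cells of passages 2 to 5 were collected in exponential growth. The tumor line and null BM-MSC were labelled tumorigenic, and the other 3 groups non-tumorigenic. Loss of the genes, osteogenic priming and virus cannot be told apart in null against wild-type cells, because only the null cells are described as primed.

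Between 53.3% and 58.4% of the spots of an array were well above background. Levels below are log2 signal relative to the array's own 75th percentile, and they are compared between groups for 1 probe at a time. Rb1 had levels of -1.98 and -1.97 in the tumor line, 0.65 and 0.54 in null BM-MSC, 1.90 and 1.92 in wild-type BM-MSC, -1.91 and -1.97 in null ASC, and 1.31 on both arrays of wild-type ASC. Trp53 was not well above background on either array of the tumor line, and it had levels of -0.89 and -1.11 in null BM-MSC, 0.83 and 0.71 in wild-type BM-MSC, -4.49 and -5.12 in null ASC, where 1 of 2 arrays was well above background, and 1.11 and 1.02 in wild-type ASC. Both genes were lower in null than in wild-type cells of either tissue. Both were also higher in null BM-MSC than in null ASC and the tumor line, so the null groups were not alike in these signals. The part of this in the comparisons between these groups, and in the difference of null effects, was not tested. Rb1 was well above background on all 10 arrays, those of the tumor line and both null groups included. Whether their probes lie in the deleted parts was not determined. All 11 mesenchymal stromal markers passed the scanner's background test on all 10 arrays, but levels of some of them differed widely. Eng had means of -2.12 in the tumor line and 3.13 in null BM-MSC. Nt5e had means of 2.39 and 1.20 in these groups, against -3.56 for null fat cells. Its wild-type means were -2.32 for marrow and -2.81 for fat. Other marker lists also differed between the groups. The signals of 6 osteoblast markers, relative to the 75th percentile on the linear scale, summed to 128 to 135 in the tumor line, 81.7 to 84.4 in null BM-MSC, 26.3 to 27.7 in wild-type BM-MSC, 0.488 to 0.697 in null ASC and 0.448 in wild-type ASC. Spp1 made up most of the tumor line sums, with means of 7.03 in the tumor line and 3.66 in null BM-MSC. Every other osteoblast marker was lower in the tumor line than in null BM-MSC, Ibsp with means of -4.41 and 5.69. In the tumor line Sp7, Alpl and Bglap were well above background on neither array, while all 6 were above it in both BM-MSC groups. The signals of 6 adipocyte markers summed to 14 to 14.7 in the tumor line and 16.1 to 16.3 in null BM-MSC. They summed to 20.2 to 20.9 in wild-type BM-MSC, 231 to 253 in null ASC and 261 to 274 in wild-type ASC. Lpl made up most of the ASC sums, with means of 7.91 and 8.05 in null and wild-type ASC. Pparg and Cebpa were higher in marrow than in fat. Pparg means were 2.48 and 2.77 in null and wild-type BM-MSC, against -1.30 and -1.55 in null and wild-type ASC. Fabp4 was higher in fat among null cells and lower in fat among wild-type cells. Adipoq was above background on no array of the tumor line, either null group or wild-type ASC. The signals of 8 leukocyte and myeloid markers summed to 13.6 to 14.5 in the tumor line and 22.4 to 23.5 in null BM-MSC. They summed to 28.8 to 29.1 in wild-type BM-MSC, 16.7 to 17.8 in null ASC and 29.4 to 34.1 in wild-type ASC. Itgam, the brightest of them, had means of 2.80 in the tumor line and 4.23 in null BM-MSC. Csf1r and Adgre1 were also lower in the tumor line than in null BM-MSC, while Cd14, Cd68, Lyz2 and Aif1 were higher. The signals of 5 epithelial markers summed to 2.77 to 2.83 in the tumor line and 2.59 to 2.61 in null BM-MSC. They summed to 0.308 to 0.309 in wild-type BM-MSC, 0.676 to 0.793 in null ASC and 0.348 to 0.388 in wild-type ASC. Krt18 made up most of the tumor line and null BM-MSC sums, with means of 1.40 and 1.15. Krt8 was also higher in the tumor line, and it was above background on neither null BM-MSC array. Krt19 and Cdh1 were lower in the tumor line, where Cdh1 was above background on neither array. The part of these lists in the Notch results was not tested. The tumor line arrays shared a slide that held no other group, so slide and tumor line cannot be told apart. Wild-type and null cultures lay in different rows of the other slide, so row and genotype cannot be told apart either. On that slide ASC lay in columns 1 and 2 and BM-MSC in columns 3 and 4, so column and tissue cannot be told apart. In bulk RNA, fewer cells of a type and less RNA per cell cannot be told apart.

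Notch4, Notch3 and Jag1 had the widest range of group means among the Notch genes, and their promoters are shown as a description. A link between promoter letters and these ranges was not tested. Each window runs from 250 bases before the annotated start to 30 bases after it, 5′ to 3′ on the gene's strand, from RefSeq on GRCm38.p6. Capitals mark matches to 4 motifs searched on both strands: the RBPJ letters GTGGGAA, the E2F letters TTTNGCGC, the AP-1 letters TGANTCA and the GC box GGGCGG. The Notch4 window is chr17:34564045-34564324 (+), the Notch3 window is chr17:32166861-32167140 (-), and the Jag1 window is chr2:137116491-137116770 (-).
Notch4: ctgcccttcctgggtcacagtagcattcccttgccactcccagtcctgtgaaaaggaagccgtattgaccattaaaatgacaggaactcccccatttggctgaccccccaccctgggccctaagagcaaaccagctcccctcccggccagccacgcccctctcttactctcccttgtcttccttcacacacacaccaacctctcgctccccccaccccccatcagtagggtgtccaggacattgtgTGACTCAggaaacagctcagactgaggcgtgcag
Notch3: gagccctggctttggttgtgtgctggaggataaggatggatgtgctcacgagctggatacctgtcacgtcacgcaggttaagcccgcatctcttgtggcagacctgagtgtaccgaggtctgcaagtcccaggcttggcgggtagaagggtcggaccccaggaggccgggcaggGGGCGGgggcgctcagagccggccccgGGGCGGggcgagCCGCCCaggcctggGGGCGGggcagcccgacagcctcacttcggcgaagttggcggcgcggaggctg
Jag1: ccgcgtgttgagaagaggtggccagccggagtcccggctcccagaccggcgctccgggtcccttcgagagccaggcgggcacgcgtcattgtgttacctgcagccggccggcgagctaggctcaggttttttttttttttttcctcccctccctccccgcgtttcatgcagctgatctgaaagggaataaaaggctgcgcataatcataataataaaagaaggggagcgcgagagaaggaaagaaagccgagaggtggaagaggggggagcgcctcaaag
The Notch4 window held 1 AP-1 match, across the start site from base -4 to base 3, and no GC box. The Notch3 window held 4 GC boxes, and the Jag1 window held none of the 4 motifs. Of 32851 windows of this length, 7.46% held the AP-1 letters, 34.7% a GC box, 5.94% the RBPJ letters and 1.28% the E2F letters. Of the other Notch genes in the promoter table, Notch1, Notch2 and Jag2 each had 5 or 6 GC boxes and no other match, and Dll1 had an AP-1 match in 1 of its 2 windows. The 8 windows of the 7 genes in the table held no RBPJ and no E2F match. A match is a description of these letters and not a binding site.

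The array measured 7 of the Notch genes. Each probe is 60 bases long, and coordinates are those of the files (mm9); the exon or UTR under a probe was not determined. The probes used lie on chromosome 2 from 26319440 to 26319499 for Notch1, on chromosome 3 from 97953914 to 97953973 for Notch2, on chromosome 17 from 32257848 to 32257907 for Notch3 and on chromosome 17 from 34725120 to 34725179 for Notch4. Those of the ligands lie on chromosome 2 from 136907433 to 136907492 for Jag1 and on chromosome 17 from 15504623 to 15504682 for Dll1, and that of Hey1 lies on chromosome 3 from 8663432 to 8663491. Notch1, Notch2, Notch3, Notch4, Jag1 and Hey1 were well above background on all 10 arrays, and Dll1 on all but 1 of null ASC. Jag2, Hes1 and Heyl were well above background on no array. Their levels ran from -7.46 to -6.22 for Jag2, from -7.60 to -5.23 for Hes1 and from -7.64 to -6.68 for Heyl, and the lowest level that counted as well above background on an array lay between -5.80 and -5.04. No fold is given for these genes, and a low signal of 1 probe does not show that the transcript is absent. The only Hes1 probe, on chromosome 16 from 30067820 to 30067879 (mm9, plus strand), holds the letters AATAAA from base 42 of its 60.

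**Figure D1:**
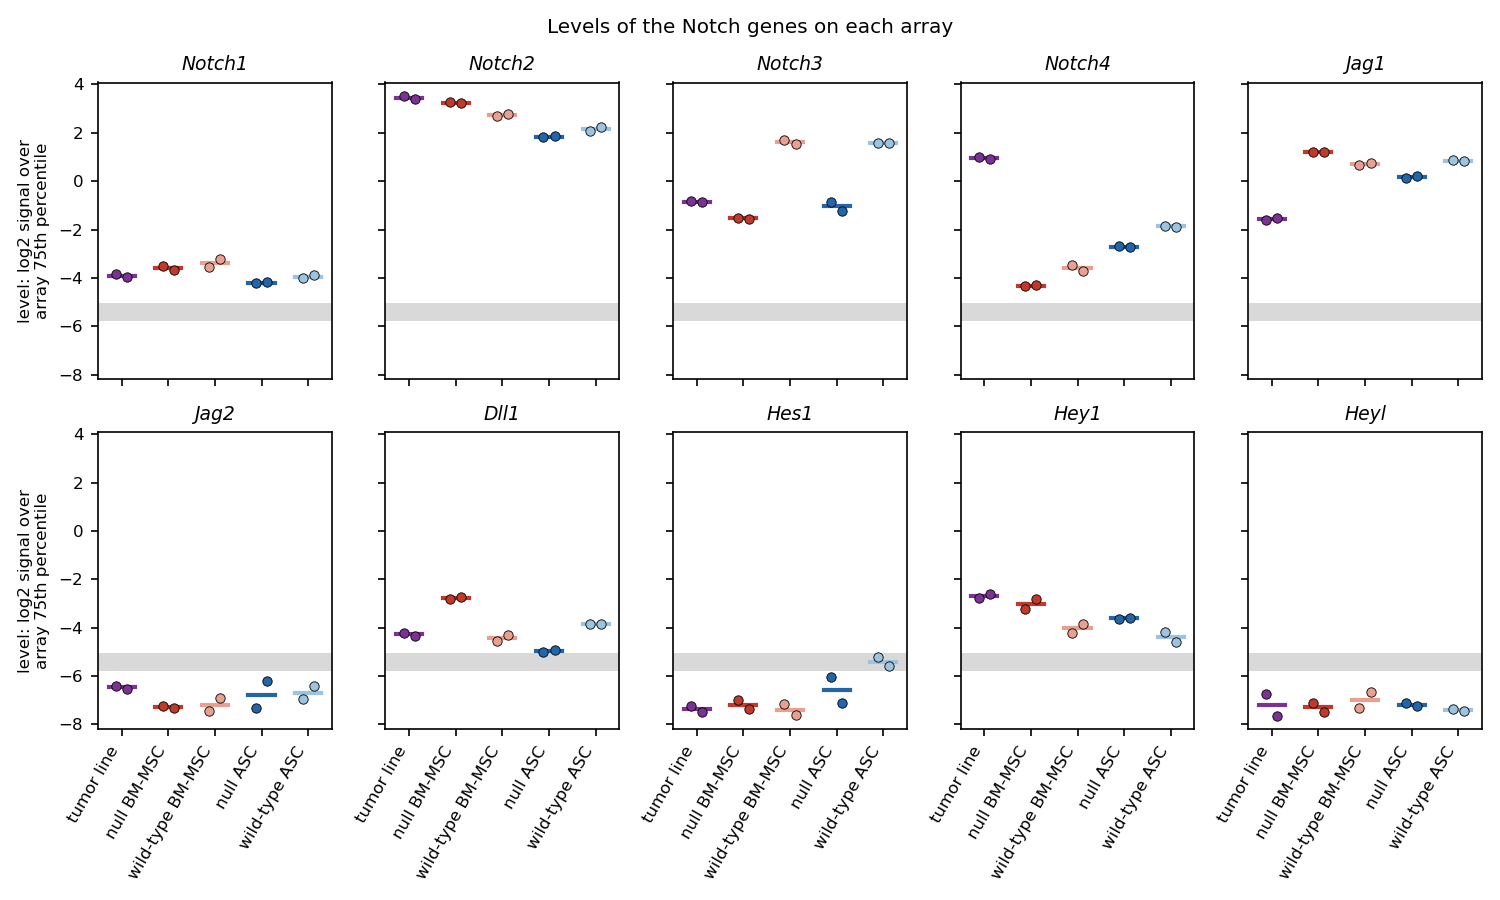
Level of each Notch gene (log2 signal over the array's 75th percentile, vertical axis) in the tumor line, null BM-MSC, wild-type BM-MSC, null ASC and wild-type ASC. Points are arrays, bars are means of 2, and the grey band spans the lowest level well above background on each array (-5.80 to -5.04); Notch4 stands high in the tumor line alone, Notch3 is high in both wild-type groups, and Jag2, Hes1 and Heyl lie in or below the band.

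Of the receptors, Notch4 was far higher in the tumor line than in any other group. Notch4, a receptor best known from blood vessel endothelium, had levels of 0.98 and 0.93 in the tumor line, -4.35 and -4.29 in null BM-MSC, -3.48 and -3.70 in wild-type BM-MSC, -2.67 and -2.73 in null ASC, and -1.84 and -1.90 in wild-type ASC. No 2 groups overlapped, and the order of the means was tumor line, wild-type ASC, null ASC, wild-type BM-MSC, null BM-MSC. It rose by 5.28 ± 0.08 (log2, SE, 2 arrays per group) in the tumor line against null BM-MSC, which is 38.8-fold (limma, adjusted p = 5.43e-08), and by 4.55 ± 0.08 against wild-type BM-MSC, 23.4-fold (adjusted p = 9.44e-08). Of 10 endothelial markers, Kdr, Pecam1 and Esam were well above background on both tumor line arrays, and Cdh5, Tek, Tie1, Emcn, Erg and Cldn5 on neither. Esam had levels of -3.90 and -3.69 in the tumor line, against -5.61 and -4.98 in null BM-MSC, where 1 of 2 arrays was well above background, and -4.49 and -4.91 in wild-type BM-MSC. Kdr had levels of 1.69 and 1.43 in the tumor line, against 1.83 and 1.78 in null BM-MSC, and Pecam1 overlapped between these groups. Vwf was well above background on 1 of 2 arrays of the tumor line (levels -5.31 and -4.91) and of null BM-MSC (-4.97 and -4.55). In wild-type BM-MSC its levels were -3.22 and -3.42. The signals of the 10 summed to 2.91 to 3.46 in the tumor line, against 3.66 to 3.77 in null BM-MSC and 3.79 to 4.11 in wild-type BM-MSC. They were higher in fat, at 4.68 to 4.99 in null ASC and 4.35 to 4.5 in wild-type ASC. In the tumor line the 7 smooth muscle and pericyte markers summed to 25.6 to 25.9, against 1300 to 1350 in null BM-MSC. In wild-type BM-MSC they summed to 994 to 1160. Acta2 and Tagln made up most of the BM-MSC sums, and both were lower in the tumor line, as were Cnn1 and Myh11. Cspg4 did not follow them, with means of 3.11 in the tumor line, 3.83 in null BM-MSC and 2.54 in wild-type BM-MSC. The part of these differences in the Notch results was not tested.

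Notch4 was lower in null than in wild-type cells of both tissues, and lower in marrow than in fat. It fell by 0.73 in null BM-MSC against wild-type BM-MSC (limma, adjusted p = 0.000693) and by 0.83 in null ASC against wild-type ASC (adjusted p = 0.000331), and these effects differed by 0.10 ± 0.11 (adjusted p = 0.551). It fell by 1.62 in null BM-MSC against null ASC (adjusted p = 7.62e-06) and by 1.72 in wild-type BM-MSC against wild-type ASC (adjusted p = 6.3e-06). These sizes depended on the background correction. With a normexp background these 4 changes were -0.12, where the call ended (adjusted p = 0.182), -0.49, -0.57 and -0.94, and the rise in the tumor line against null BM-MSC was 3.41.

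Notch3 was lower in the tumor line and in both null groups than in either wild-type group. Notch3, which is needed for smooth muscle cells of arteries, had levels of -0.82 and -0.86 in the tumor line, -1.51 and -1.57 in null BM-MSC, 1.71 and 1.56 in wild-type BM-MSC, -0.87 and -1.22 in null ASC, and 1.57 and 1.58 in wild-type ASC. The wild-type groups overlapped each other and stood above all null and tumor line arrays, and null ASC lay just below the tumor line, with no overlap. Notch3 fell by 3.17 ± 0.12 in null BM-MSC against wild-type BM-MSC (limma, adjusted p = 1.11e-05), to 0.111 of the wild-type signal. In null ASC against wild-type ASC it fell by 2.62 ± 0.12 (adjusted p = 1.82e-05), to 0.163 of the wild-type signal. The fall was larger in marrow by 0.55 ± 0.16 (adjusted p = 0.0442), a call that ended in 11 of 20 alternative settings.

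Between tissues Notch3 differed less. Null BM-MSC were 0.50 below null ASC (limma, change -0.50 ± 0.12, adjusted p = 0.0101), and the change was -0.32 without replicate 1 of null ASC. The call ended without replicate 2 of null BM-MSC (adjusted p = 0.0534). The wild-type tissues differed by 0.06 ± 0.12 (adjusted p = 0.724). The tumor line was above null BM-MSC by 0.70 ± 0.12 (adjusted p = 0.0016) and fell by 2.47 ± 0.12 against wild-type BM-MSC (adjusted p = 3.76e-06). Smooth muscle and pericyte markers summed to 1300 to 1350 in null BM-MSC against 994 to 1160 in wild-type BM-MSC, and to 699 to 730 in null ASC against 725 to 794 in wild-type ASC. Their part in the Notch3 results was not tested.

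Notch2, a broadly expressed receptor, was higher in marrow cells and opposite in its null effects. Its levels were 3.52 and 3.38 in the tumor line, 3.26 and 3.22 in null BM-MSC, 2.72 and 2.76 in wild-type BM-MSC, 1.81 and 1.86 in null ASC, and 2.07 and 2.22 in wild-type ASC. No groups overlapped, and the order of the means was tumor line, null BM-MSC, wild-type BM-MSC, wild-type ASC, null ASC. Notch2 rose by 0.50 ± 0.07 in null BM-MSC against wild-type BM-MSC (limma, adjusted p = 0.00221) and fell by 0.31 in null ASC against wild-type ASC (adjusted p = 0.0144), a difference of effects of 0.81 ± 0.10 (adjusted p = 0.00176). The call in ASC ended without replicate 2 of wild-type ASC (adjusted p = 0.0661) or replicate 1 of null ASC (adjusted p = 0.0738). Null BM-MSC exceeded null ASC by 1.40 (adjusted p = 9.1e-06) and wild-type BM-MSC exceeded wild-type ASC by 0.59 (adjusted p = 0.000549). The tumor line exceeded wild-type BM-MSC by 0.71 (adjusted p = 0.000148) and null BM-MSC by 0.21 (adjusted p = 0.035), the last of which lost its call in 11 of 19 alternative settings. A second Notch2 probe, fitted by itself after the data were seen, gave the same sign and call in all 7 comparisons, for example 0.44 in null BM-MSC, -0.46 in null ASC and 0.43 in the tumor line against null BM-MSC.

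Notch1, the receptor with the widest known roles in development, had the narrowest range of group means among the 7 measured genes. Its levels were -3.83 and -3.98 in the tumor line, -3.50 and -3.67 in null BM-MSC, -3.54 and -3.22 in wild-type BM-MSC, -4.20 and -4.18 in null ASC, and -4.01 and -3.89 in wild-type ASC. Null and wild-type BM-MSC overlapped, as did the tumor line and wild-type ASC. Notch1 was higher by 0.61 ± 0.12 in null BM-MSC against null ASC (limma, adjusted p = 0.00497) and by 0.57 ± 0.12 in wild-type BM-MSC against wild-type ASC (adjusted p = 0.00688), and fell by 0.52 ± 0.12 in the tumor line against wild-type BM-MSC (adjusted p = 0.00768). It missed the threshold in the tumor line against null BM-MSC (-0.32, adjusted p = 0.0501, called in 4 of 19 alternative settings), in null ASC against wild-type ASC (-0.24, adjusted p = 0.166) and in null BM-MSC against wild-type BM-MSC (-0.20, adjusted p = 0.243), and the difference of the null effects was 0.04 ± 0.17 (adjusted p = 0.9). With normexp the change in wild-type BM-MSC against wild-type ASC was 0.18 and not called (adjusted p = 0.0811). Averaged with a second Notch1 probe that was well above background on no array, the changes in null BM-MSC against null ASC (0.35, adjusted p = 0.141) and in the tumor line against wild-type BM-MSC (-0.43, adjusted p = 0.0718) were not called.

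Both measured ligands moved in opposite directions in null marrow and null fat. Jag1, a Notch ligand of the Jagged type, had levels of -1.59 and -1.51 in the tumor line, 1.20 on both arrays of null BM-MSC, 0.68 and 0.77 in wild-type BM-MSC, 0.15 and 0.22 in null ASC, and 0.88 and 0.83 in wild-type ASC. No groups overlapped; the tumor line was lowest and null BM-MSC highest. Jag1 rose by 0.48 in null BM-MSC against wild-type BM-MSC (limma, adjusted p = 0.000911) and fell by 0.67 in null ASC against wild-type ASC (adjusted p = 0.000184), a difference of effects of 1.15 ± 0.08 (adjusted p = 0.000189). Null BM-MSC exceeded null ASC by 1.01 (adjusted p = 1.24e-05), while the wild-type tissues differed by -0.13 (BM-MSC minus ASC, adjusted p = 0.0897). In the tumor line Jag1 fell by 2.75 ± 0.06 against null BM-MSC (adjusted p = 1.49e-07), to 0.149 of the null signal, and by 2.27 ± 0.06 against wild-type BM-MSC (adjusted p = 3.05e-07).

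Dll1, a Notch ligand of the Delta type, was highest in null BM-MSC. Its levels were -4.23 and -4.32 in the tumor line, -2.80 and -2.72 in null BM-MSC, -4.55 and -4.32 in wild-type BM-MSC, -5.00 and -4.92 in null ASC, where 1 of 2 arrays was well above background, and -3.85 on both arrays of wild-type ASC. The tumor line and wild-type BM-MSC overlapped at -4.32, and the other groups stood apart. Dll1 rose by 1.67 ± 0.09 in null BM-MSC against wild-type BM-MSC (limma, adjusted p = 3.66e-05) and fell by 1.11 in null ASC against wild-type ASC (adjusted p = 0.00014). The effects differed by 2.78 ± 0.12 (adjusted p = 4.07e-05). Null BM-MSC exceeded null ASC by 2.20 (adjusted p = 2.7e-06), and wild-type BM-MSC were 0.58 below wild-type ASC (change -0.58, adjusted p = 0.00139). The tumor line fell by 1.51 against null BM-MSC (adjusted p = 9.11e-06) and differed from wild-type BM-MSC by 0.16 (adjusted p = 0.146, called in 4 of 18 alternative settings). With normexp the sizes were 0.74 in null BM-MSC, -0.36 in null ASC, 1.10 for the difference of effects, -0.24 in wild-type BM-MSC against wild-type ASC and -0.73 in the tumor line against null BM-MSC. A second Dll1 probe was well above background on no array, and averaged with it the change in wild-type BM-MSC against wild-type ASC was not called (-0.77, adjusted p = 0.0696).

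The only measured target, Hey1, was higher in the null cells and in the tumor line. Its levels were -2.79 and -2.62 in the tumor line, -3.24 and -2.83 in null BM-MSC, -4.22 and -3.84 in wild-type BM-MSC, -3.63 and -3.60 in null ASC, and -4.17 and -4.58 in wild-type ASC. The wild-type groups overlapped each other, and the tumor line arrays were the highest. Hey1 rose by 0.99 ± 0.20 in null BM-MSC against wild-type BM-MSC (limma, adjusted p = 0.00949), by 0.76 ± 0.20 in null ASC against wild-type ASC (adjusted p = 0.0249), and by 1.33 ± 0.20 in the tumor line against wild-type BM-MSC (adjusted p = 0.00118). The 2 null effects differed by 0.23 ± 0.29 (adjusted p = 0.6), which does not show that they are alike. The other comparisons gave 0.33 for the tumor line against null BM-MSC (adjusted p = 0.186), 0.58 for null BM-MSC against null ASC (adjusted p = 0.0503, called in 9 of 20 alternative settings) and 0.35 for wild-type BM-MSC against wild-type ASC (adjusted p = 0.204). Hey1 had the largest SE of the 7 measured genes. The call in null BM-MSC ended without replicate 1 of wild-type BM-MSC (adjusted p = 0.0542) or replicate 2 of null BM-MSC (adjusted p = 0.0518). The call in null ASC ended without replicate 2 of wild-type ASC (adjusted p = 0.118) or either null ASC array (adjusted p = 0.0849 and 0.091). With normexp the changes were 0.48 in null BM-MSC, 0.21 in null ASC, where the call ended (adjusted p = 0.0594), and 0.58 in the tumor line against wild-type BM-MSC.

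**Figure D2:**
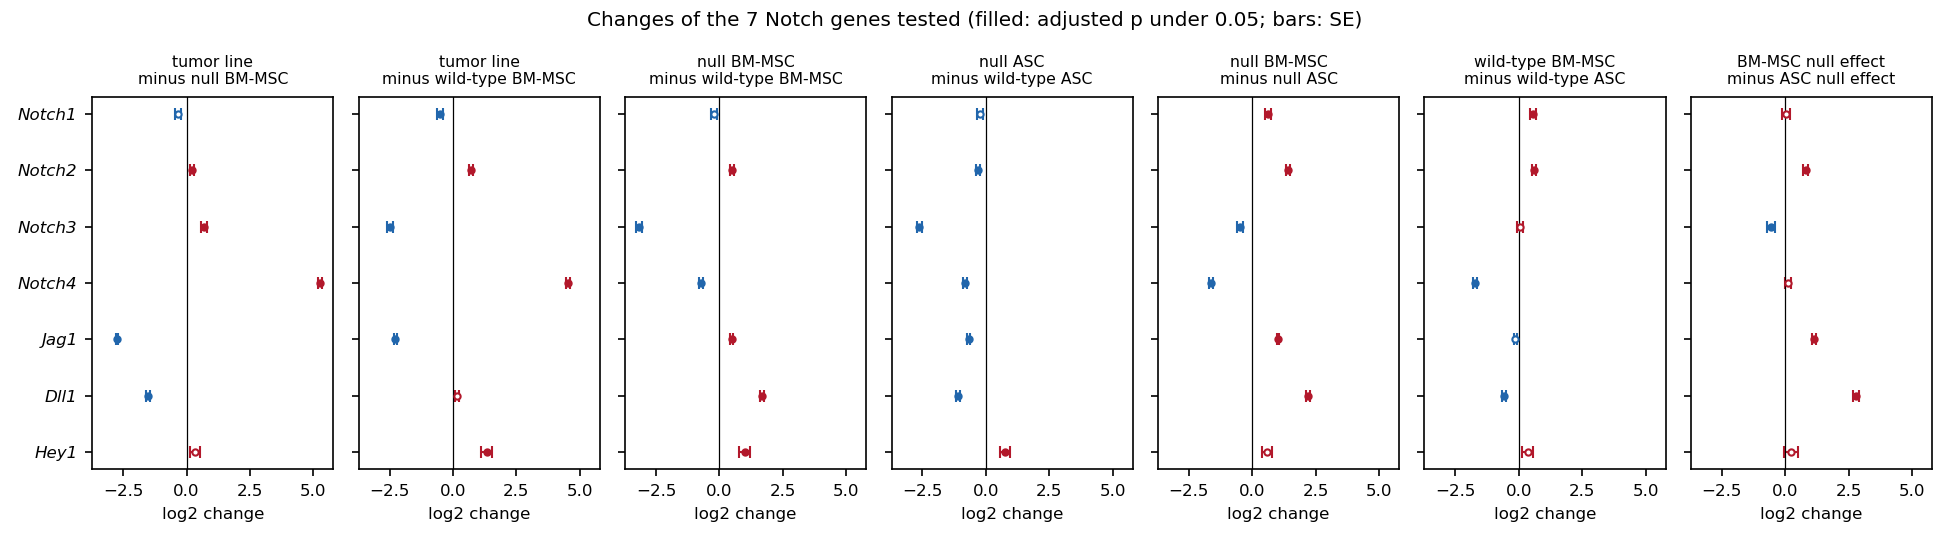
Log2 change of each measured Notch gene (horizontal axis) in the 7 comparisons, with its SE as a bar that is often narrower than the point; red is higher and blue lower, and open points missed the threshold. Notch3 lies far to the left in both null against wild-type panels (-3.17 and -2.62), Notch4 far to the right in both tumor line panels (5.28 and 4.55), and Jag1 and Dll1 change side between the panels of null BM-MSC and null ASC.

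Counted over the Notch genes, 6 of 7 tested were called in null BM-MSC against wild-type BM-MSC (39.5% of the 22600 genes tested), 4 higher (19.3% of all) and 2 lower (20.2% of all). In null ASC against wild-type ASC 6 of 7 were called (41.5% of all), 1 higher (20.3%) and 5 lower (21.2%). The difference between these effects was called for 4 of 7 (31.8% of all), 3 upward (15.3%) and 1 downward (16.6%). In null BM-MSC against null ASC 6 were called (55.4% of all), 4 higher (26%) and 2 lower (29.4%). In wild-type BM-MSC against wild-type ASC 4 were called (54% of all), 2 higher (25.7%) and 2 lower (28.3%). In the tumor line against null BM-MSC 5 were called (69.5% of all), 3 higher (34.6%) and 2 lower (35%), and against wild-type BM-MSC 6 were called (67.8% of all), 3 higher (32.9%) and 3 lower (34.8%). Calls were frequent over the whole array, and with 7 genes a count near these shares is not a result about Notch genes. The median change of the 7 was 0.48 in null BM-MSC and -0.67 in null ASC against wild type, beside 0.01 and -0.03 over all genes. It was 0.21 and 0.16 in the tumor line against null and wild-type BM-MSC, beside -0.05 and -0.06 over all genes.

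The other pathway genes were read as a list of 58, of which 57 were on the array and 48 were tested. Dlk1, an imprinted gene for a Delta-like protein that lacks the receptor-binding domain of the canonical ligands, was highest in the tumor line and lowest in null BM-MSC. Its levels were 6.66 and 6.70 in the tumor line, -3.00 and -2.84 in null BM-MSC, -0.45 and -0.55 in wild-type BM-MSC, 2.50 and 2.56 in null ASC, and 1.42 and 1.50 in wild-type ASC. No groups overlapped. It was higher by 9.60 ± 0.07 in the tumor line against null BM-MSC (limma, adjusted p = 6.74e-09), fell by 2.42 in null BM-MSC against wild-type BM-MSC (adjusted p = 6.85e-06) and rose by 1.07 in null ASC against wild-type ASC (adjusted p = 8.1e-05). The null effects differed by -3.48 ± 0.10 (adjusted p = 1.82e-05), the opposite sign to Jag1 and Dll1.

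Of 7 other ligands and ligand-like genes tested, Dlk1 among them, 1 rose and 5 fell in the tumor line against null BM-MSC (34.6% and 35% of all genes), with a median change of -0.91 beside -0.05 over all genes. Against wild-type BM-MSC 1 rose and 6 fell (32.9% and 34.8% of all), with a median of -1.82 beside -0.06. Mfap5, a microfibril protein, had a level of -2.38 on both arrays of the tumor line, against 4.72 and 4.63 in null BM-MSC and 5.11 and 5.08 in wild-type BM-MSC. It fell by 7.05 against null BM-MSC (limma, adjusted p = 6.74e-09). Ccn3, a secreted matricellular protein, had levels of -3.22 and -3.17 in the tumor line, against 1.17 and 1.07 in null BM-MSC and 1.07 and 1.15 in wild-type BM-MSC, and fell by 4.31 against null BM-MSC (adjusted p = 8.72e-08). In null BM-MSC against wild-type BM-MSC 1 of the 7 rose and 5 fell (19.3% and 20.2% of all genes), and in null ASC against wild-type ASC 4 rose and 1 fell (20.3% and 21.2%). With so few genes these counts describe the list and were not tested.

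Of the genes that act on the receptor, Lfng was higher in marrow than in fat. Lfng, the glycosyltransferase Lunatic fringe that alters which ligands a receptor answers to, had levels of -3.34 and -3.20 in the tumor line, -0.74 and -0.76 in null BM-MSC, -1.25 and -1.22 in wild-type BM-MSC, -4.09 and -4.50 in null ASC, and -4.30 and -4.77 in wild-type ASC. Marrow cells stood above fat cells, and the tumor line lay between them. Lfng rose by 3.54 ± 0.18 in null BM-MSC against null ASC (limma, adjusted p = 9.35e-06) and by 3.30 in wild-type BM-MSC against wild-type ASC (adjusted p = 1.38e-05), and fell by 2.52 in the tumor line against null BM-MSC (adjusted p = 2.87e-05). With normexp the changes between tissues were 2.16 and 1.76. Of 4 glycosyltransferases tested, none rose and 3 fell in the tumor line against null BM-MSC (34.6% and 35% of all genes), 2 rose and 1 fell in null BM-MSC against null ASC (26% and 29.4% of all), and 4 rose in wild-type BM-MSC against wild-type ASC (25.7% of all). Of 8 genes of receptor cleavage, the proteases that free the intracellular domain, 2 rose and 4 fell in the tumor line against null BM-MSC. Of these 8, 1 rose and 4 fell in null BM-MSC against wild-type BM-MSC (19.3% and 20.2% of all), and none rose and 4 fell in null ASC against wild-type ASC (20.3% and 21.2%). Between tissues 2 rose and 2 fell in null BM-MSC against null ASC, and 3 rose and 2 fell in wild-type BM-MSC against wild-type ASC (25.7% and 28.3% of all).

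Nuclear partners of the cut receptor were mixed. Maml3, a Mastermind-like co-activator, had levels of 1.56 and 1.50 in the tumor line, -0.57 and -0.67 in null BM-MSC, -0.15 and -0.19 in wild-type BM-MSC, -3.36 and -3.43 in null ASC, and -2.69 and -2.92 in wild-type ASC, with no overlap between groups. It rose by 2.15 ± 0.08 in the tumor line against null BM-MSC (limma, adjusted p = 1.78e-06) and by 2.77 in null BM-MSC against null ASC (adjusted p = 9.35e-07). Rbpj, the DNA-binding partner, falls outside the naming rule and is given after its values were seen, since it carries the pathway's signal to DNA. Its levels were 4.77 and 4.67 in the tumor line, 3.47 and 3.36 in null BM-MSC and 4.32 and 4.24 in wild-type BM-MSC. They were lower in fat, at 2.23 and 2.36 in null ASC and 2.34 and 2.41 in wild-type ASC. Rbpj rose by 1.31 in the tumor line against null BM-MSC (adjusted p = 8.08e-06) and fell by 0.87 in null BM-MSC against wild-type BM-MSC (adjusted p = 0.000229). Maml1 and Maml2, outside the rule as well, did not rise in the tumor line against null BM-MSC. Maml2 had means of -1.85 and -0.38 in these groups, and Maml1 of 2.83 and 2.95. Of 12 nuclear genes tested, 5 rose and 2 fell in the tumor line against null BM-MSC (34.6% and 35% of all genes), and 5 rose and 6 fell in null BM-MSC against wild-type BM-MSC (19.3% and 20.2%).

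Turnover and further targets complete the list. Neurl1a, a ubiquitin ligase that helps ligands to be taken up, had levels of 1.63 and 1.55 in the tumor line, -1.30 and -1.18 in null BM-MSC and 0.26 on both arrays of wild-type BM-MSC. In fat its levels were 1.04 and 1.06 in null ASC and 1.76 and 1.75 in wild-type ASC. Wild-type ASC were thus highest and null BM-MSC lowest. Neurl1a rose by 2.83 in the tumor line against null BM-MSC (limma, adjusted p = 1.21e-07). Of 14 turnover and trafficking genes tested, 6 rose and 3 fell in that comparison (34.6% and 35% of all genes), and 7 rose and 3 fell in null BM-MSC against wild-type BM-MSC (19.3% and 20.2%). Of the other 8 HES, HEY and target genes, 3 were tested, and 1 fell and none rose in the tumor line against null BM-MSC. Over the whole list, 32 of 48 were called in the tumor line against null BM-MSC (69.5% of all genes) and 39 against wild-type BM-MSC (67.8%), and 35 were called in null BM-MSC (39.5%) and 24 in null ASC (41.5%) against wild type.

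**Figure D3:**
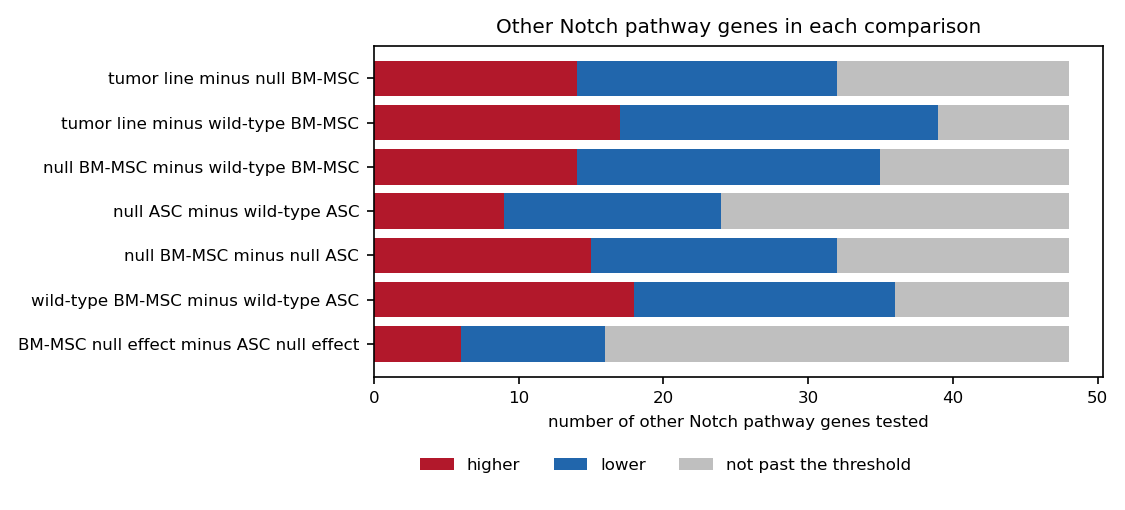
Number of other Notch pathway genes tested (48 in all, horizontal axis) that were higher, lower or not past the threshold in each of the 7 comparisons. The fewest calls were in the difference of null effects (16, beside 31.8% of all genes), the most in the tumor line against wild-type BM-MSC (39, beside 67.8% of all genes). The difference of null effects had the lowest share over all genes too.

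**Figure D4:**
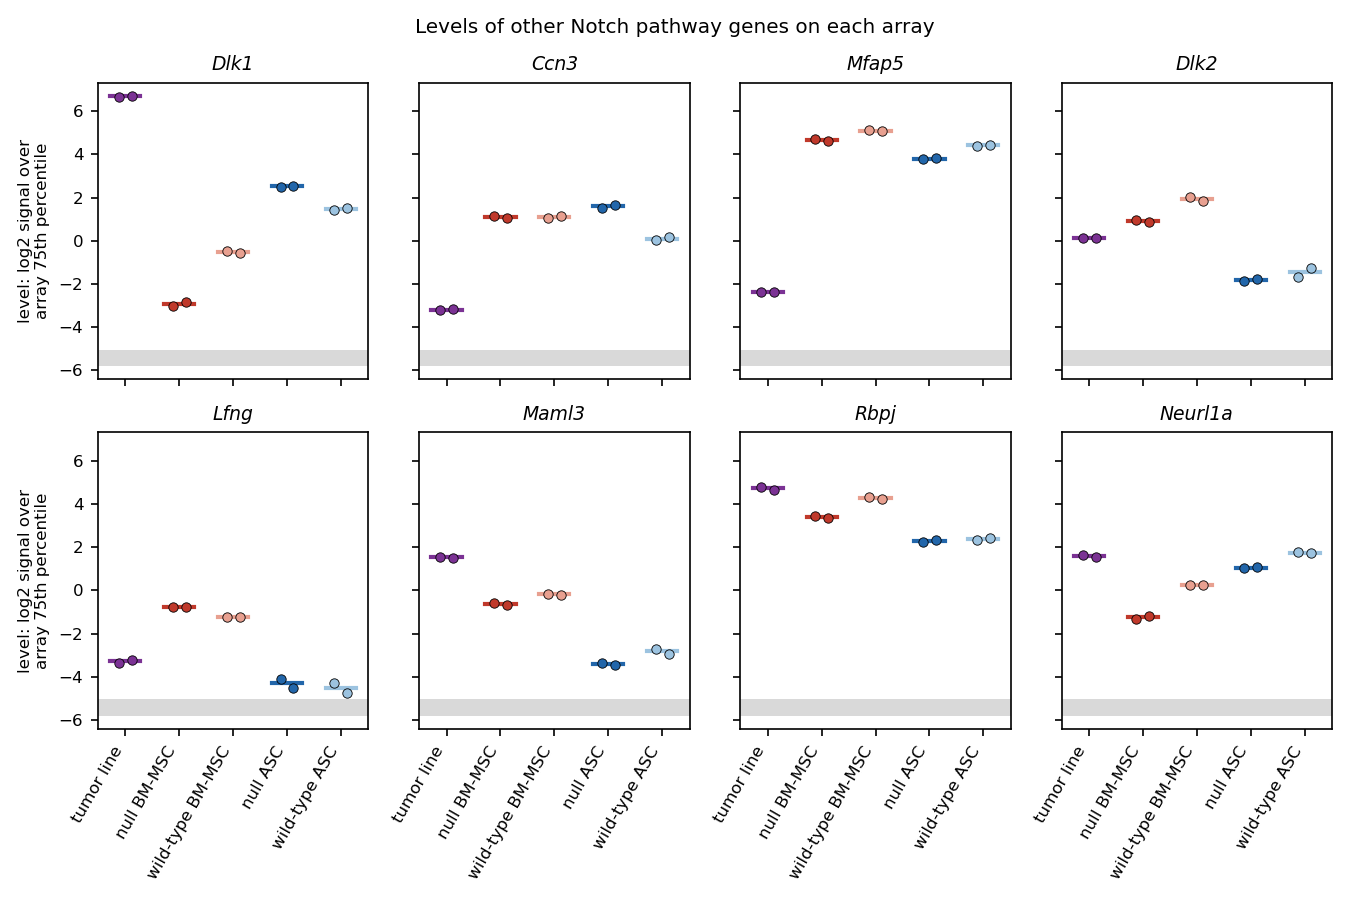
Level (log2 signal over the array's 75th percentile) of 8 other pathway genes on each array, drawn as for the Notch genes, with the grey band at the lowest level well above background. Dlk1 is highest in the tumor line (6.66 and 6.70), where Mfap5 (-2.38) and Ccn3 (-3.22 and -3.17) are lowest.

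The genes whose 10 array values, each centred on its own mean, lay nearest to a Notch gene were found for the 3 Notch genes of widest range. For Notch4 they were Adgrb2, Ltbp4 and Itgax, at a root mean square difference of 0.33, 0.37 and 0.45 (log2). Itgax was well above background in the tumor line alone, so its other values lie below the measurable range. For Notch3 they were Scn3b (0.30), Inpp5d (0.41) and Dcxr (0.42), of which Inpp5d was well above background in the wild-type groups alone. For Jag1 they were Marcks (0.12), Pcdhb18 (0.16) and Gnptg (0.16).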

How the data were processed

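Total RNA of 10 cultures, 2 per group, was hybridised to single-colour (Cy3) Agilent arrays, 1 per culture. The deposited scanner files hold intensity and flags per spot, written by Feature Extraction 10.7.3.1 according to the file headers. The deposited processed intensity is already background-subtracted, with surrogates for dim spots, and probe coordinates are on mm9. The deposited series matrix holds the authors' values, which read as log2. Its array medians were 5.04 to 5.06 and its columns correlated with their own scanner values at 0.989 to 0.993, so scale and direction were checked and centring stays unknown. It was used as an alternative only. Limma is named in the submitters' processing notes, without its role.

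Processed signals were averaged per probe on the log2 scale without outlier spots, and the array's 75th percentile (signals of 483 to 621) was subtracted. Of 55681 probes, 37 without a usable spot on some array were dropped. Names came from RefSeq by accession for 27235 probes, by symbol for 3581 and by synonym for 565, and 24300 kept the file's name. Each gene was represented by its brightest probe on average. The 22600 genes above background on the 2 arrays of any group entered 1 limma 3.58.1 model of 5 groups in R 4.3.3 (with the data.table package, version 1.17.8), two-sided, with Benjamini-Hochberg adjustment over all genes tested and a threshold of 0.05. Changes had a median SE of 0.0946 (log2), and precision is limited by 2 arrays per group. The limma step was checked on simulated data with known changes added to some genes.

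Named were all 10 Notch genes, Rb1 and Trp53, and for 3 Notch genes the 3 genes nearest in pattern, leaving out names that are accessions, clones or models. Among other pathway genes the rule allowed the 3 largest called changes per direction and comparison, all of which are given only for the tumor line against null BM-MSC. The Notch genes, the lists and the motifs were chosen with earlier results of these data known. Marker lists were mesenchymal stromal, endothelial, smooth muscle and pericyte, leukocyte and myeloid, osteoblast, adipocyte and epithelial. Alternatives were normexp background, median and quantile scaling, the series matrix, filters, probe averaging, outlier spots, the replicate number as a block, 1 slide, and leaving out each array.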

Additional observations from a re-analysis of the deposited data

Results flagged for a closer look

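For 4 Notch genes the null effect in BM-MSC and the null effect in ASC differed in the test of the difference itself (limma, adjusted over 22600 genes). Notch2 differed by 0.81 (log2; 0.50 in BM-MSC and -0.31 in ASC), Jag1 by 1.15 (0.48 and -0.67) and Dll1 by 2.78 (1.67 and -1.11). In these 3 the effect in marrow was upward and the effect in fat downward. Notch3 differed by -0.55, with a fall in both tissues (-3.17 and -2.62); this last call (adjusted p = 0.0442) ended in 11 of 20 alternative settings.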

How the results depend on the processing

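The count of Notch genes called stayed within 1.5 times its value in all 7 comparisons under every setting run: 5 to 6 in null BM-MSC and 4 to 7 in null ASC against wild type, 3 to 5 for the difference of these effects, 5 to 7 and 3 to 5 in null and wild-type BM-MSC against ASC, and 4 to 6 and 5 to 7 in the tumor line against null and wild-type BM-MSC. Changes of single Notch genes turned sign only where they were not called, and the 14 changes given for other pathway genes kept sign and call throughout. With all probes of a gene averaged, Dll1 in the tumor line against wild-type BM-MSC was -0.027 and the Notch1 difference of null effects -0.32. Leaving out 1 array, the Notch1 difference of null effects ran from -0.12 to 0.19, that of Notch4 from -0.011 to 0.22, and Notch3 in wild-type BM-MSC against wild-type ASC from -0.018 to 0.13. Normexp moved the Notch4 difference of null effects to 0.37, past the threshold (adjusted p = 0.0171), and signals near background limit Notch1, Notch4 in null BM-MSC, Dll1 and Hey1. Over all genes, the difference of null effects was called for 4737 genes with median scaling and 7197 with the 75th percentile. Among other pathway genes it was called for 10 without replicate 2 of null BM-MSC, against 16.

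Deviations of same-numbered arrays were weakly correlated (-0.122 to 0.116), and the main model did not pair arrays by number. With 1 difference per group, these correlations cannot show whether same-numbered cultures were prepared together. With the number as a replicate block, 1 of 49 changes lost its call, Notch2 in the tumor line against null BM-MSC (0.21, adjusted p = 0.0542). The p-values reflect only how far duplicate cultures differed, and the tumor line is 1 line.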
